A study of Homo sapiens with 15 samples.

Results

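Interferon-stimulated genes are genes whose transcription rises when a cell senses an interferon, and 54 of them were followed through the cell lines of a study of the RNA-binding protein YBX1 in head and neck cancer (HNC). The members were taken by gene symbol, and 52 of the 54 were listed among the 12995 genes of the data. MX2, a GTPase that blocks nuclear entry of viral genomes, and USP18, the protease that removes ISG15 from proteins, were not listed and are not analysed here. RNA was measured in 15 libraries that form 5 groups of 3. OKF6 is a normal oral epithelial line, labelled wild type and without doxycycline. SCC15 +YBX1 and SCC25 +YBX1 are oral cancer lines that carry Cas9 and a guide construct against YBX1 that doxycycline induces, but received no doxycycline. SCC15 -YBX1 and SCC25 -YBX1 are the same lines given doxycycline at 1 µg/ml to switch on the guide, and all groups are labelled with a time of 3 days. The carrying cells had been sorted as pools by GFP and mCherry after lentiviral transduction, so that each group is a pool and not 1 clone. Culture differed too: SCC15 was kept in DMEM with foetal bovine serum, the other lines without serum in a keratinocyte medium, so effects of line and of medium in SCC15 cannot be told apart. Nor can loss of YBX1 and exposure to doxycycline with an induced guide, as no group received doxycycline with another guide. The labels do not say whether libraries of a group came from separate cultures, so p-values measure the spread between these libraries, which may be technical.

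Interferons signal through receptors on the cell surface, whose JAK kinases phosphorylate STAT proteins. STAT2 acts with IRF9 in a complex that binds the interferon-stimulated response element (ISRE) of the promoters, and a second element, called GAS, is bound by pairs of STAT proteins. Epithelial cells make such genes both at rest and when they sense viral or misplaced nucleic acid, and many of the products bind RNA, modify proteins or block the entry and budding of viruses.

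Levels are log2 CPM, the log2 of a gene's reads with 0.5 read added, scaled to library size, from 3′ end sequencing in which a read counts 1 transcript end. Log2 changes are differences of group means ± SE, and a difference of 1 is a doubling. Reads per library lay between 4075290 and 6118501, and the lowest value of each library, between -3.86 and -3.15, stands for 0 reads. Gene length does not enter such values, yet levels are compared here only within a gene, between libraries. YBX1 itself, the targeted gene, had group means of 6.55 ± 0.22 in SCC25 +YBX1 and 4.54 ± 0.82 in SCC25 -YBX1 (SD, n = 3), and of 5.55 ± 0.44 and 3.40 ± 0.29 in SCC15. All 3 libraries of each -YBX1 group lay below all 3 of its +YBX1 group, although the change passed no adjusted threshold (limma, Benjamini-Hochberg over all genes, adjusted p = 0.290 in SCC25 and 0.326 in SCC15). Markers of epithelium differed between the lines. The 8 epithelial markers summed to between 349 and 498 reads in the SCC15 libraries against 23341 to 123953 in the others, with the keratinocyte factor TP63 at 1 read over the SCC15 +YBX1 libraries. Of 8 immune markers CD68 and CD14 were listed, with 2 to 10 reads together in a SCC15 library and 53 to 307 in the others. Of 9 fibroblast and endothelial markers COL1A1 and LUM were listed, summing to 67 to 471 reads. The part of these differences in the results was not tested.

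The ISRE, the response element described above, is shown first. RefSeq promoters (GRCh38.p14, 250 bases before to 50 after a gene's start) were found for 45 of the 52 listed members, and IFIT2, OAS2, OASL, IFITM2, GBP2, IRF7 and TRIM22 had no entry. The ISRE core was searched as GAAANNGAAA on both strands, where N is any base, and GAS as TTCNNNGAA. The ISRE core stood in 28 of the 45 promoters (62.2%), against 3.65% of all 27305 genes with a promoter and 2.65% of those of the measured genes. GAS stood in 11 of the 45 (24.4%), against 7.88% of all genes. Of the 45, 13 have more than 1 start in the table and the first was used. With any start allowed 30 members had the ISRE core, against 4.38% of all genes with a promoter. The match nearest to the start is printed with 10 bases on each side, 5′ to 3′ along the gene's strand, for 10 members whose levels are given below, with the ISRE core or its reverse complement in capitals. They lie at chr1:1013380-1013409 (ISG15), chr12:112938452-112938481 (OAS3), chr3:122680800-122680829 (PARP14), chr10:89327865-89327894 (IFIT3), chr10:89414554-89414583 (IFIT5), chr11:314024-314053 (IFITM1), chr4:88457035-88457064 (HERC5), chr21:41420559-41420588 (MX1) and chr14:94110631-94110660 (IFI27) on the plus strand and at chr11:320876-320905 (IFITM3) on the minus strand.
ISG15: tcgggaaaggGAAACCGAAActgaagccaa
OAS3: agccgggcggGAAAACGAAAccagaaatcc
PARP14: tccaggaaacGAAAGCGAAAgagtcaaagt
IFIT3: tttaaattagTTTCACTTTCcagtttcctc
IFIT5: atttcttaagTTTCAGTTTCtgagcgctcg
IFITM1: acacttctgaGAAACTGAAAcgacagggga
IFITM3: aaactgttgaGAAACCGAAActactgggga
HERC5: aaacattatgTTTCGTTTTCcactggagct
MX1: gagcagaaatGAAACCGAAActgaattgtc
IFI27: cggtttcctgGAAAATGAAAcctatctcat
The core began 107 bases before the start in ISG15, 12 in OAS3, 29 in PARP14, 122 in IFIT3, 4 in IFIT5, 6 in IFITM1, 35 in IFITM3, 74 in HERC5 and 95 in IFI27. In MX1 it lay at base 12 after the start. A match of letters is a description and not a binding site.

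Whole promoters of OAS3 and IFIT5 are printed because OAS3 had 0 reads over the SCC15 +YBX1 libraries and IFIT5 had 209, and both hold the core (capitals). OAS3 lies at chr12:112938224-112938523 and IFIT5 at chr10:89414318-89414617, both on the plus strand of GRCh38.p14.
OAS3: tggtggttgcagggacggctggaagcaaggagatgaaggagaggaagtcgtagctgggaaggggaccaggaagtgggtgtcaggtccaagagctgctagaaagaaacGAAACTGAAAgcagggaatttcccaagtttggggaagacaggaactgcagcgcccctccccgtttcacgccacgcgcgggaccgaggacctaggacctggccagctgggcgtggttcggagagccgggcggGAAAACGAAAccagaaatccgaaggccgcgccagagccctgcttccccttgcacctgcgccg
IFIT5: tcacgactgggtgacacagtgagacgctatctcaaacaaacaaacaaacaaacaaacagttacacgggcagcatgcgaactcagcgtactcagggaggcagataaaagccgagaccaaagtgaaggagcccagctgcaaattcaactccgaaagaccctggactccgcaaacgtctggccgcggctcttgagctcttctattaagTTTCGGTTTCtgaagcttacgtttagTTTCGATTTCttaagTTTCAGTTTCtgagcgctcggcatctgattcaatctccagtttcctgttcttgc
OAS3 holds 2 matches and IFIT5 holds 3.

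The first comparison asks how a cancer line without knockdown differs from normal oral cells. YBX1 RNA itself was lower than in OKF6 in both lines. Its log2 change was -2.21 in SCC15 +YBX1 (adjusted p = 7.07e-04, limma) and -1.21 in SCC25 +YBX1 (adjusted p = 0.0375, limma). The part of this in the members' levels was not tested. SCC15 +YBX1 held very little interferon-stimulated RNA. Of the 52 listed members 38 were lower and 2 were higher in SCC15 +YBX1 than in OKF6, at an adjusted p under 0.05 (limma over all genes). Among all genes tested 23.4% were lower and 26.9% higher. The median log2 change of the members was -3.73 against 0.10 over all genes, and -3.56 with the 6 members that had 0 reads in every SCC15 +YBX1 library set at the bound their depth allows. Against SCC25 +YBX1, the other cancer line, 45 members were lower in SCC15 and 0 were higher, while 23.6% of all genes were lower and 20.0% higher. That median was -4.40, or -4.07 with 7 genes at a bound. In 48 of the 52 members all 3 SCC15 libraries lay below all 3 SCC25 libraries, where libraries of both lines did not overlap in either direction for 66.6% of all genes. Setting the library medians equal moved the median of all genes in SCC15 against OKF6 from 0.10 to 0.26 and left 40 members called, 39 of them among the former 40. It called 3981 of all genes higher and 2662 lower, in place of 3497 and 3037.

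The members took 0.0554% to 0.0697% of the reads of a SCC15 library, 0.171% to 0.331% in OKF6, and 0.36% to 1.12% in SCC25. Between 13 and 16 members were at 0 reads in each SCC15 +YBX1 library, against 0 to 2 in OKF6 and exactly 1 in each SCC25 +YBX1 library. Since these are bulk cultures, fewer cells with the transcript and less transcript per cell cannot be told apart. The depositors' filter on low genes was already applied, so a member seen in SCC25 or OKF6 alone entered the data through the line in which it is high, and the counts above hold for the 52 members that passed.

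**Figure D1:**
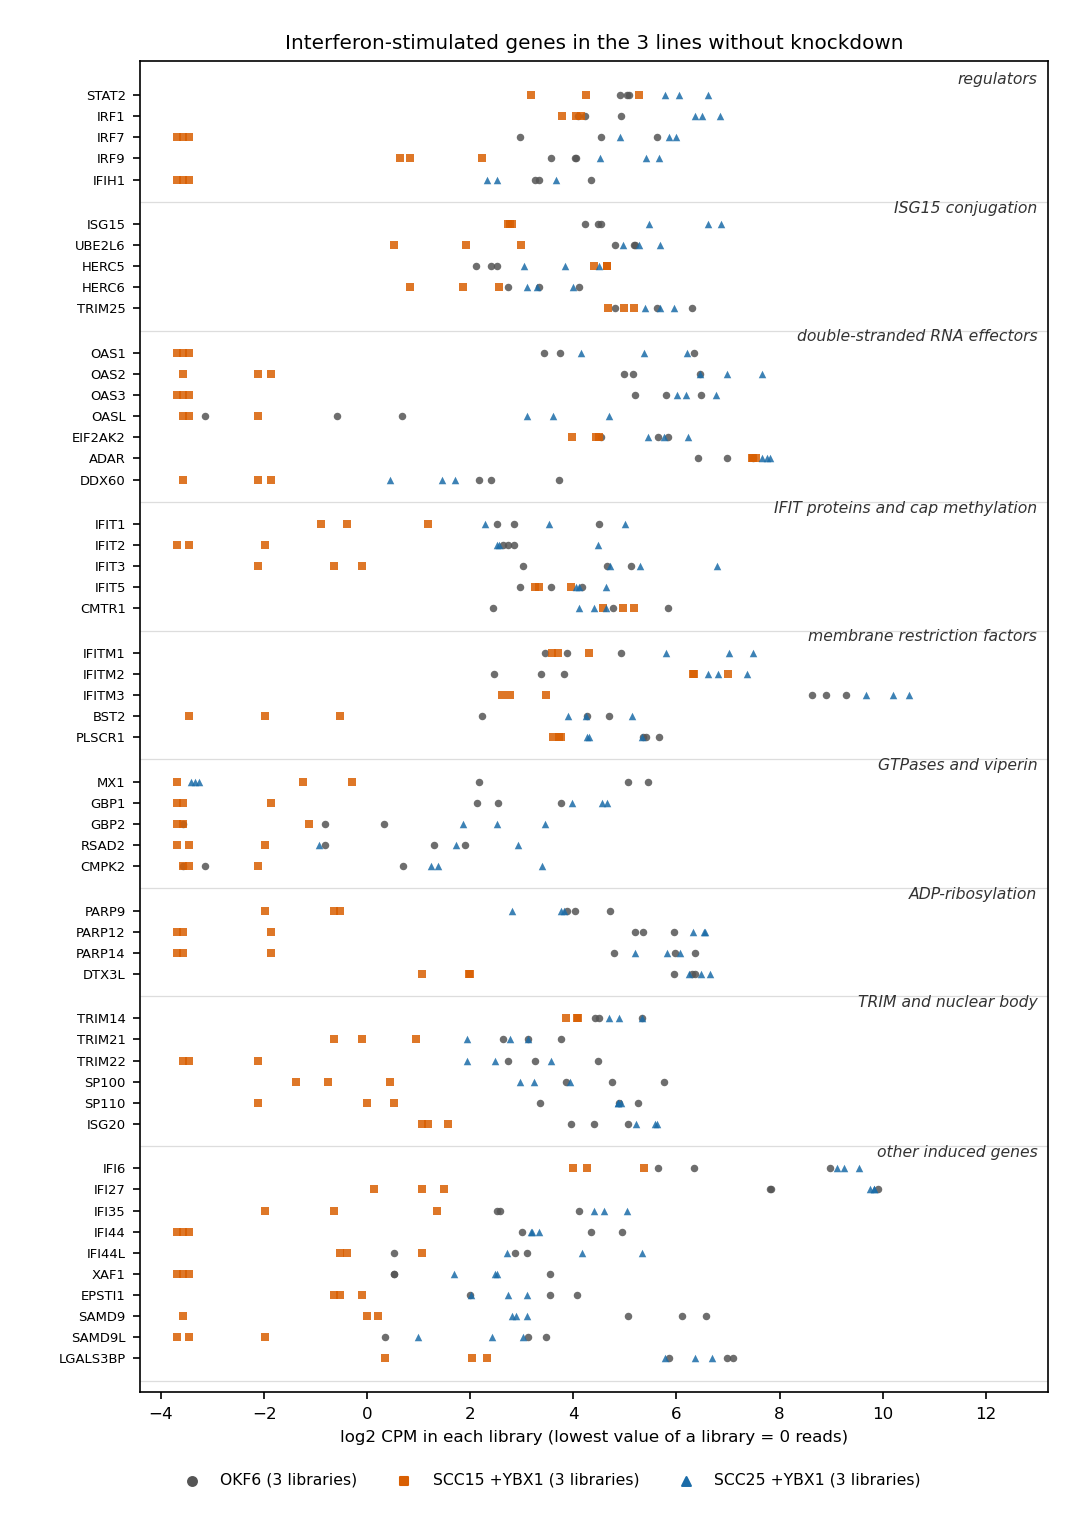
Log2 CPM (x axis) of the 52 listed interferon-stimulated genes (rows, grouped by role) in the 9 libraries without knockdown; each point is 1 library, 3 per line. Most SCC15 squares lie left of the circles and triangles, and HERC5, IFITM2, ADAR, CMTR1 and IFIT5 are among the rows where they do not.

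Among the regulators, IRF7 is the factor that amplifies interferon production. IRF7 measured 4.54, 5.62 and 2.97 in the 3 OKF6 libraries, 5.85, 5.98 and 4.91 in SCC25 +YBX1 and -3.46, -3.57 and -3.70 in SCC15 +YBX1. The SCC15 values all stand for 0 reads, which puts SCC15 at least 48.9-fold below OKF6 and at least 92.1-fold below SCC25, with the floor taken as 3 reads in a library. IFIH1, the MDA5 sensor of long double-stranded RNA, measured 4.34, 3.33 and 3.25 in OKF6, 2.32, 3.67 and 2.52 in SCC25 +YBX1 and -3.46, -3.57 and -3.70 in SCC15 +YBX1. It too had 0 reads in every SCC15 +YBX1 library, at least 24.1-fold below OKF6, and its OKF6 and SCC25 libraries overlapped. IRF9, the DNA-binding subunit of the complex at the ISRE, was lower in SCC15 than in OKF6 at a log2 change of -2.66 ± 0.48 (adjusted p = 8.54e-04), and 73.3% of the 75-base pieces near its 3′ end also lie in an overlapping annotated gene, which makes its reads uncertain. STAT2, of the same complex, and IRF1, a factor that acts on the same promoters, kept reads in SCC15. Their log2 changes against OKF6 were -0.78 ± 0.44 (adjusted p = 0.170) and -0.42 ± 0.27 (adjusted p = 0.213) and did not pass, while both were lower than in SCC25, at a log2 change of -1.91 ± 0.44 and -2.57 ± 0.27.

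ISG15 encodes a ubiquitin-like protein that is joined to other proteins, UBE2L6 its conjugating enzyme, and HERC5, HERC6 and TRIM25 ligases. ISG15 measured 4.48, 4.53 and 4.23 in OKF6, 6.62, 6.87 and 5.47 in SCC25 +YBX1 and 2.77, 2.74 and 2.81 in SCC15 +YBX1. The lines formed separate ranges, with SCC15 lowest and SCC25 highest, and SCC15 differed from OKF6 at a log2 change of -1.64 ± 0.34 (adjusted p = 0.00226). UBE2L6 measured 5.17, 5.20 and 4.80 in OKF6, 5.27, 5.69 and 4.96 in SCC25 +YBX1 and 2.99, 0.52 and 1.92 in SCC15 +YBX1, a log2 change of -3.25 ± 0.52 (adjusted p = 3.75e-04) against OKF6. All 3 SCC15 libraries lay below the others but spread over more than 2 units. HERC5 went the other way. It measured 2.40, 2.52 and 2.10 in OKF6, 3.85, 4.50 and 3.04 in SCC25 +YBX1 and 4.66, 4.40 and 4.65 in SCC15 +YBX1. SCC15 lay above OKF6 without overlap, by 2.23 ± 0.39 (adjusted p = 6.47e-04), and overlapped SCC25. HERC6, which lies beside HERC5 (chr4:88378739-88443097 and chr4:88457119-88506163, hg38), was lower in SCC15 than in OKF6 at a log2 change of -1.64 ± 0.54 (adjusted p = 0.0255), a call lost without OKF6 replicate 1, SCC15 +YBX1 replicate 2 or SCC15 +YBX1 replicate 3. TRIM25 did not pass in either comparison of SCC15.

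Effectors of double-stranded RNA include the OAS enzymes, which make the 2-5A signal that activates RNase L. OAS3 measured 6.47, 5.80 and 5.20 in OKF6, 6.18, 6.76 and 6.01 in SCC25 +YBX1 and -3.46, -3.57 and -3.70 in SCC15 +YBX1. With 926 reads over the OKF6 libraries, 1244 over SCC25 and 0 over SCC15, it was at least 110-fold lower in SCC15 than in OKF6. OAS1 measured 6.33, 3.75 and 3.42 in OKF6, 5.38, 6.2 and 4.15 in SCC25 +YBX1 and -3.46, -3.57 and -3.70 in SCC15 +YBX1, again 0 reads throughout SCC15 +YBX1 and at least 63.7-fold below OKF6. OAS2 measured 6.46, 4.98 and 5.16 in OKF6, 6.99, 7.65 and 6.46 in SCC25 +YBX1 and -1.87, -3.57 and -2.11 in SCC15 +YBX1, where 2 reads were counted in all. The ratio of OKF6 to SCC15 was 465-fold (95% counting interval 128 to 3846) for OAS2. OAS1, OAS2 and OAS3 are neighbours (chr12:112905856-112933219, chr12:112978395-113011723 and chr12:112938051-112976460, hg38). DDX60, a helicase that aids RNA sensors, was also lower in SCC15 (adjusted p = 6.38e-05, limma), with 2 reads there and a ratio of OKF6 to SCC15 of 63.8-fold (95% counting interval 17.3 to 533).

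Other RNA effectors kept more reads in SCC15. EIF2AK2, the kinase PKR that halts translation, had 355 reads in SCC15 +YBX1 and a log2 change of -1.03 ± 0.35 (adjusted p = 0.0309) against OKF6, a call lost without each OKF6 library but replicate 3 and without each SCC15 +YBX1 library. ADAR, the editor that turns adenosine to inosine in double-stranded RNA, measured 7.49, 6.98 and 6.42 in OKF6, 7.67, 7.82 and 7.76 in SCC25 +YBX1 and 7.46, 7.54 and 7.49 in SCC15 +YBX1. SCC15 replicates of ADAR lay within 0.08 of each other, and the change against OKF6 of 0.53 ± 0.24 (adjusted p = 0.0860) did not pass. ADAR is named here after its values were seen.

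IFIT proteins bind the foreign ends of viral RNA, and CMTR1 methylates the cap that marks RNA as self. IFIT3 measured 4.65, 5.12 and 3.03 in OKF6, 5.29, 6.78 and 4.71 in SCC25 +YBX1 and -0.65, -0.11 and -2.11 in SCC15 +YBX1, a log2 change of -5.23 ± 0.73 (adjusted p = 1.39e-04) between SCC15 and OKF6. IFIT2 measured 2.64, 2.73 and 2.84 in OKF6, 2.57, 4.47 and 2.52 in SCC25 +YBX1 and -3.46, -1.98 and -3.70 in SCC15 +YBX1, where 1 read was counted in all. In both genes the SCC15 libraries lay below all others, and the ratio of OKF6 to SCC15 for IFIT2 was 118-fold (95% counting interval 20.8 to 4722). IFIT5 sits in the same cluster on the plus strand of chromosome 10, at chr10:89414568-89421605, after IFIT2 at chr10:89283694-89309271, IFIT3 at chr10:89327307-89377473 and IFIT1 at chr10:89392546-89406487 (hg38). IFIT5 measured 4.16, 3.57 and 2.97 in OKF6, 4.06, 4.63 and 4.12 in SCC25 +YBX1 and 3.26, 3.96 and 3.33 in SCC15 +YBX1. The SCC15 and OKF6 libraries of IFIT5 overlapped, with a log2 change of -0.05 ± 0.38. IFIT1 was lower in SCC15 at a log2 change of -3.32 ± 0.81 (adjusted p = 0.00561), and CMTR1 did not pass, at 0.55 ± 0.66. IFIT5 was chosen after its values were seen.

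The membrane factors split within 1 gene family. IFITM proteins stop viruses from fusing with endosomes. IFITM3 measured 9.29, 8.63 and 8.89 in OKF6, 10.20, 10.51 and 9.69 in SCC25 +YBX1 and 2.61, 2.77 and 3.46 in SCC15 +YBX1. SCC15 thus lay far below both other lines, at a log2 change of -5.99 ± 0.29 (adjusted p = 1.32e-07) against OKF6. IFITM2 measured 3.82, 2.47 and 3.37 in OKF6, 6.81, 7.37 and 6.62 in SCC25 +YBX1 and 7.00, 6.34 and 6.32 in SCC15 +YBX1. Both cancer lines were above OKF6 without overlap for IFITM2, SCC15 by 3.33 ± 0.35 (adjusted p = 1.83e-05). IFITM1 measured 4.92, 3.88 and 3.44 in OKF6, 7.03, 7.48 and 5.79 in SCC25 +YBX1 and 4.30, 3.59 and 3.70 in SCC15 +YBX1, so that SCC15 and OKF6 overlapped and SCC25 was higher. The 3 genes are adjacent (chr11:303655-309397, chr11:310041-315272 and chr11:319676-329475, hg38) and similar in sequence. Of 75-base pieces of the last 500 bases of their transcripts, 72.1% were shared with another gene for IFITM1, 14% for IFITM2 and 15% for IFITM3. The genes that share pieces include, for all 3, a further annotated gene without a symbol, and the part of each was not separated. Reads of these genes, IFITM1 above all, are thus uncertain.

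BST2, the tetherin that holds budding virus on the cell, measured 2.23, 4.69 and 4.26 in OKF6, 4.25, 5.13 and 3.89 in SCC25 +YBX1 and -3.46, -1.98 and -0.53 in SCC15 +YBX1. SCC15 lay below both lines, at a log2 change of -5.72 ± 0.82 (adjusted p = 1.76e-04) against OKF6. PLSCR1, a phospholipid scramblase that restricts several viruses, was lower in SCC15 than in OKF6 at a log2 change of -1.78 ± 0.30 (adjusted p = 6.05e-04).

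Antiviral GTPases were led by MX1, which traps viral nucleoproteins. MX1 measured 5.45, 5.07 and 2.16 in OKF6, -3.41, -3.34 and -3.27 in SCC25 +YBX1 and -0.29, -1.25 and -3.70 in SCC15 +YBX1. Both cancer lines lay below OKF6, and MX1 was at 0 reads in each SCC25 +YBX1 library, the line in which most other members were high. GBP1, a guanylate-binding protein that attacks the vacuoles of pathogens, measured 3.76, 2.14 and 2.54 in OKF6, 3.97, 4.66 and 4.55 in SCC25 +YBX1 and -1.87, -3.57 and -3.70 in SCC15 +YBX1. SCC25 was above OKF6 without overlap for GBP1 but the change of 1.58 ± 0.64 (adjusted p = 0.0844) did not pass, whereas in SCC15 1 read was counted in all. The ratio of OKF6 to SCC15 was 141-fold (95% counting interval 24.9 to 5630) for GBP1. RSAD2, the viperin enzyme that makes a chain-terminating nucleotide, was lower in SCC15 (adjusted p = 0.00950, limma), at 1 read and a ratio of OKF6 to SCC15 of 40.2-fold (95% counting interval 6.76 to 1634).

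All 4 listed members of the ADP-ribosylation group were lower in SCC15 than in each other line. PARP14 and PARP12 transfer ADP-ribose, and PARP9 acts in a complex with the ubiquitin ligase DTX3L. PARP12 measured 5.96, 5.20 and 5.34 in OKF6, 6.53, 6.55 and 6.31 in SCC25 +YBX1 and -1.87, -3.57 and -3.70 in SCC15 +YBX1. PARP14 measured 5.98, 6.36 and 4.78 in OKF6, 5.81, 6.07 and 5.20 in SCC25 +YBX1 and -1.87, -3.57 and -3.70 in SCC15 +YBX1. A single read of each was counted over the 3 SCC15 libraries. The ratio of OKF6 to SCC15 was 835-fold (95% counting interval 149 to 33009) for PARP12 and 983-fold (95% counting interval 176 to 38867) for PARP14. DTX3L, with 57 reads in SCC15, was lower than in OKF6 at a log2 change of -4.54 ± 0.29 (adjusted p = 5.97e-07) and PARP9 at a log2 change of -5.26 ± 0.53 (adjusted p = 1.27e-05).

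Some TRIM and nuclear body proteins restrict viral genomes in the nucleus, and 5 of the 6 listed members of this group were lower in SCC15 than in OKF6. TRIM22, a ligase that represses viral transcription, measured 4.48, 3.26 and 2.74 in OKF6, 2.47, 3.57 and 1.94 in SCC25 +YBX1 and -3.46, -3.57 and -2.11 in SCC15 +YBX1. SP110, a nuclear body component, measured 4.88, 5.25 and 3.35 in OKF6, 4.87, 4.93 and 4.86 in SCC25 +YBX1 and 0.00, 0.52 and -2.11 in SCC15 +YBX1, lower in SCC15 at a log2 change of -5.02 ± 0.69 (adjusted p = 1.21e-04) against OKF6. SCC15 did not overlap the other lines in either gene, and 1 read of TRIM22 was counted there, a ratio of OKF6 to SCC15 of 226-fold (95% counting interval 40.2 to 8990). SP100, TRIM21 and the exonuclease ISG20 were lower at a log2 change of -5.35 ± 0.61, -3.11 ± 0.56 and -3.20 ± 0.35, and TRIM14, at -0.74 ± 0.30, did not pass.

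Of the 10 remaining induced genes 9 were lower in SCC15 than in OKF6, all but IFI44L. IFI27, a mitochondrial protein that is among the best induced of the family, measured 9.90, 7.83 and 7.81 in OKF6, 9.83, 9.75 and 9.84 in SCC25 +YBX1 and 1.50, 0.13 and 1.06 in SCC15 +YBX1. IFI27 in SCC15 lay below OKF6 at a log2 change of -7.62 ± 0.52 (adjusted p = 7.62e-07) and below SCC25 at a log2 change of -8.91 ± 0.52 (adjusted p = 4.28e-07). SAMD9, an antiviral and growth-restraining protein, measured 5.05, 6.58 and 6.11 in OKF6, 2.82, 3.10 and 2.88 in SCC25 +YBX1 and 0.00, -3.57 and 0.21 in SCC15 +YBX1. For SAMD9 the order was OKF6, SCC25 and SCC15, with no overlap. IFI6, an inhibitor of cell death, kept 444 reads in SCC15 +YBX1, and its change of -2.45 ± 0.70 (adjusted p = 0.0132) against OKF6 lost the call without SCC15 +YBX1 replicate 3. A non-coding gene shares 33.7% of the pieces near its 3′ end. IFI44 and XAF1 had 0 reads throughout SCC15 +YBX1, at least 35.8-fold and 8.66-fold below OKF6.

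**Figure D2:**
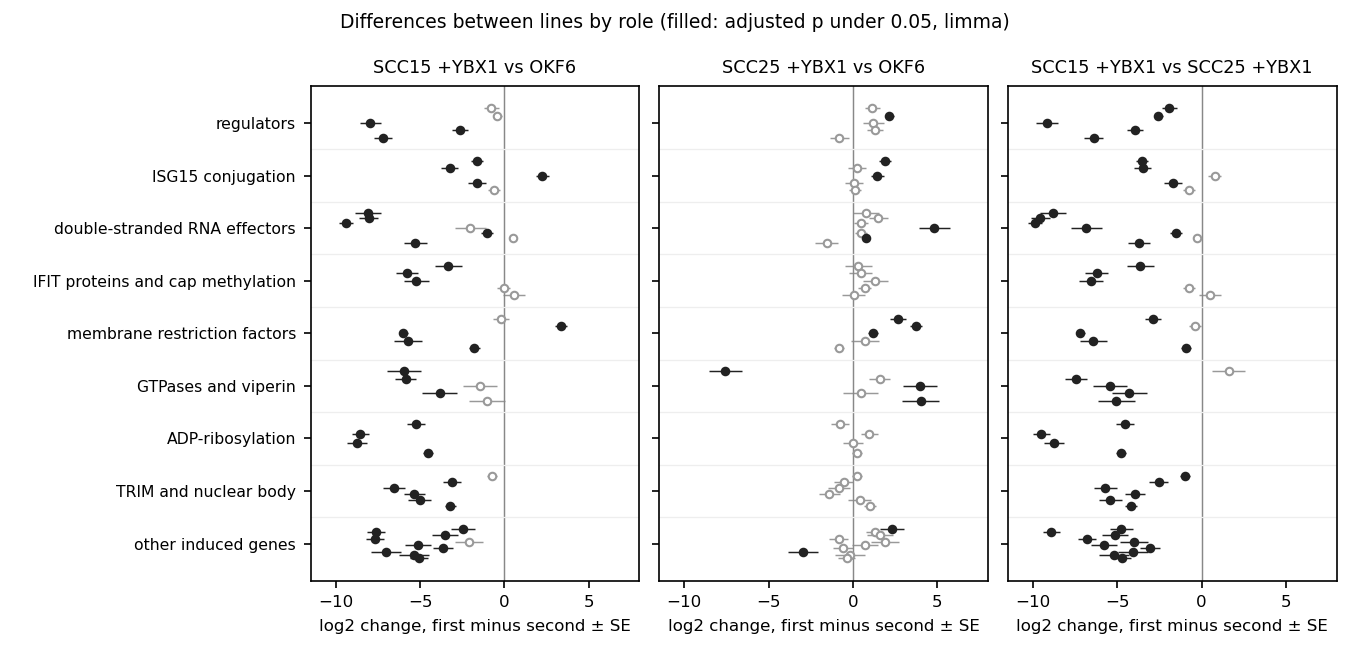
Log2 change ± SE (x axis, limma) of each listed gene in 3 comparisons of lines, by role; each point is 1 gene, filled where the adjusted p is under 0.05. In SCC15 against OKF6 38 filled points lie left of 0 and 2 right of it, and in SCC25 against OKF6 2 lie left and 11 right.

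SCC25 +YBX1 differed from OKF6 less and mostly upward. It shares its OKF6 libraries with the comparison above. Of the 52 members 11 were higher and 2 were lower at an adjusted p under 0.05 (limma), beside 18.9% of all genes higher and 11.3% lower. The share of members called higher, 11 of 52, is thus near that of all genes. The median log2 change of the members was 0.60, against 0.13 over all genes. Quantile normalisation gave 11 higher and 4 lower members, and 2006 higher and 1837 lower genes in place of 2450 and 1473. The number depends on the libraries used. SCC25 +YBX1 replicate 2 was the highest of its group in 45 of the 52 members and in 32.6% of all genes. Without it 5 members were higher and 2 lower, beside 1701 and 930 of all genes. Without SCC25 +YBX1 replicate 1 or 3, 9 and 10 members were called. All genes then gave 1759 and 1796 higher and 1015 and 981 lower. Of the 13 calls 6 held in every fit with 1 library left out. The lower calls numbered 1 without OKF6 replicate 3, SCC25 +YBX1 replicate 1 or SCC25 +YBX1 replicate 3, and 4 without OKF6 replicate 1. Without OKF6 replicate 3 or 1, 1281 and 2053 of all genes were lower.

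The 11 higher members were IRF1, ISG15, HERC5, OASL, ADAR, IFITM1, IFITM2, IFITM3, GBP2, CMPK2 and IFI6. OASL, a relative of the OAS enzymes without their activity that boosts RIG-I, measured -0.58, -3.15 and 0.68 in OKF6, 3.60, 4.70 and 3.11 in SCC25 +YBX1 and -3.46, -3.57 and -2.11 in SCC15 +YBX1. SCC25 was above OKF6 by 4.82 ± 0.91 (adjusted p = 0.00299), with 236 reads against 12. CMPK2, a mitochondrial nucleotide kinase encoded beside RSAD2, measured 0.70, -3.15 and -3.57 in OKF6, 1.23, 3.40 and 1.38 in SCC25 +YBX1 and -3.46, -3.57 and -2.11 in SCC15 +YBX1. GBP2, a sister of GBP1, measured 0.32, -0.83 and -3.57 in OKF6, 2.52, 3.45 and 1.86 in SCC25 +YBX1 and -1.14, -3.57 and -3.70 in SCC15 +YBX1. SCC25 lay above OKF6 without overlap in both, by 4.01 ± 1.07 (adjusted p = 0.0172) for CMPK2 and 3.97 ± 1.02 (adjusted p = 0.0140) for GBP2, from 8 reads each in OKF6. The calls of CMPK2 and GBP2 were lost without SCC25 +YBX1 replicate 2 (adjusted p = 0.0743 and 0.0596, limma), and that of CMPK2 also without OKF6 replicate 2 or 3.

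IFITM2, given above by library, was higher in SCC25 than in OKF6 by 3.72 ± 0.35 (adjusted p = 3.93e-05), IFITM1 by 2.68 ± 0.47 (adjusted p = 0.00193) and IFITM3 by 1.19 ± 0.29 (adjusted p = 0.0102). IRF1 was higher by 2.15 ± 0.27 (adjusted p = 2.24e-04), ISG15 by 1.90 ± 0.34 (adjusted p = 0.00230) and IFI6 by 2.31 ± 0.70 (adjusted p = 0.0293). HERC5 and ADAR were higher by 1.45 ± 0.39 and 0.79 ± 0.24. The calls of IRF1, ISG15, OASL, IFITM1, IFITM2 and MX1 held in every fit with 1 library left out, and the calls of HERC5, ADAR, IFITM3 and IFI6 did not.

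The 2 lower members were MX1 and SAMD9. MX1 went from 402 reads over the OKF6 libraries to 0 in SCC25 +YBX1, at least 43.5-fold lower (adjusted p = 3.34e-04, limma). SAMD9 was lower at a log2 change of -2.98 ± 0.88 (adjusted p = 0.0260), a call lost without OKF6 replicate 2, OKF6 replicate 3 or any SCC25 +YBX1 library. For MX1, OKF6 thus lay above both cancer lines. Those had 6 reads over the SCC15 and 0 over the SCC25 libraries, and an order between them was not detectable at this depth.

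The genes that carry the interferon signal were compared beside the members. Of 35 such genes 27 were listed, and of the ligands IFNE, an interferon made by epithelium, was the only one listed. In SCC15 against OKF6, 18 of the 27 were lower and 0 were higher, beside 23.4% and 26.9% of all genes, and against SCC25 19 were lower and 0 higher, beside 23.6% and 20.0%. The lower ones against OKF6 included IFNE (1 read in SCC15 against 33 in OKF6), the receptor chains IFNGR1 (-2.31), IFNGR2 (-1.11) and IL10RB (-1.07), and the transducer STAT3 (-1.61). Sensors and adaptors followed, with DDX58, the RIG-I sensor, at -3.95, DHX58 at -3.31, TICAM1 at -3.47, IKBKE at -2.97, MAVS at -1.53 and STING1 at -1.37. So did inhibitors of the pathway, SOCS1 at -5.80, PTPN1 at -2.67, IRF2 at -2.28, SOCS3 at -1.97, PTPN2 at -1.75 and PTPN11 at -1.38. The signed values are log2 changes, and all these genes passed the threshold (limma). The receptor genes of type I interferons kept reads: IFNAR1 and IFNAR2 had 760 and 280 reads in SCC15 +YBX1. Their changes against OKF6, of -0.38 ± 0.21 and 0.82 ± 0.34, did not pass. JAK1, TYK2 and IRF3 did not pass against OKF6 either, at 0.07 ± 0.30, 0.38 ± 0.23 and -0.68 ± 0.55. Against SCC25 +YBX1, IFNAR1 (means of 5.40 in SCC15 and 5.99 in SCC25) and TYK2 (6.36 and 7.22) were lower in SCC15 and passed, and IFNAR2 was not lower. In SCC25 against OKF6 the kinase TYK2 (1.25) and the STAT inhibitor PIAS1 (1.44) were higher and MAVS (-1.02) and PTPN11 (-1.09) lower, 2 each way of 27 beside 18.9% and 11.3% of all genes.

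The second question was what loss of YBX1 does within a line. In SCC25 the mean of 51 of the 52 members was higher in -YBX1 than in +YBX1, TRIM14 being the exception, but 0 members and 0% of all genes passed an adjusted p of 0.05 (limma). At an unadjusted p under 0.05 stood 4 members, all higher after knockdown, and 3.09% of all genes. The median log2 change of the members was 0.52, against -0.02 over all genes. Much of that difference came from 1 library. SCC25 -YBX1 replicate 2 was the highest of the 6 SCC25 libraries in 48 of the 52 members, while it was the highest for 26.2% of all genes. Without it, the mean of 29 members was higher and their median change was 0.04. Without both SCC25 libraries numbered 2, a choice made after seeing the data, 44 members were higher with a median of 0.25. Leaving out SCC25 -YBX1 replicate 3 raised the median to 0.99, with 14 members and 4.27% of all genes at an unadjusted p under 0.05 (limma), and leaving out SCC25 +YBX1 replicate 3 gave 0.29. With voom weights on the recovered reads 0 members passed as well.

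Within same-numbered pairs of SCC25 libraries, the median change of the members was 0.39 in the first pair, 1.14 in the second and 0.21 in the third. In these pairs 45, 51 and 33 of 52 members were higher, beside 52.5%, 48.4% and 47.1% of all genes. Differently numbered libraries gave other signs. The median was -0.10 and 0.73 for -YBX1 replicate 1 against +YBX1 replicates 2 and 3. It was 1.57 and 1.92 for -YBX1 replicate 2 against +YBX1 replicates 1 and 3. For -YBX1 replicate 3 against +YBX1 replicates 1 and 2 it was -0.11 and -0.65. SCC25 +YBX1 replicate 2 was itself the highest of the 3 libraries with YBX1 in 45 members, and in 32.6% of all genes. The members took 0.403%, 0.483% and 0.36% of reads in SCC25 +YBX1 and 0.649%, 1.12% and 0.388% in SCC25 -YBX1. SCC25 -YBX1 replicate 2 also held 92672 reads of the 8 epithelial markers, against 23341 to 63366 in the other SCC25 libraries. The part of this in the members' levels was not tested.

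**Figure D3:**
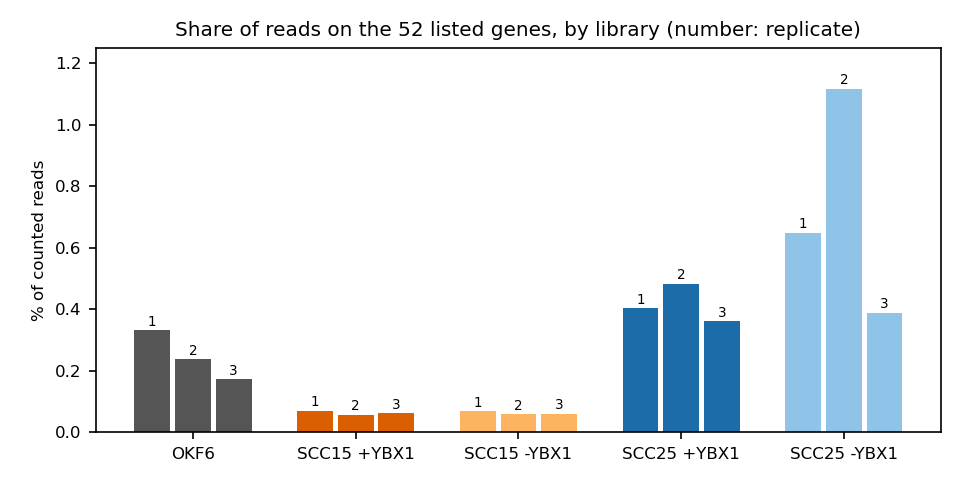
Share of all counted reads (y axis, percent) that fell on the 52 listed genes in each of the 15 libraries, by group; each bar is 1 library and the digit its replicate. SCC25 -YBX1 replicate 2 stands highest at 1.12% and the 6 SCC15 libraries lie between 0.0554% and 0.0697%.

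The members with the widest change in SCC25 span most roles. IFIH1 measured 2.32, 3.67 and 2.52 in SCC25 +YBX1 and 4.15, 4.98 and 3.42 in SCC25 -YBX1, a log2 change of 1.35 ± 0.57 (unadjusted p = 0.0324, limma). For IFIH1 replicate 2 with YBX1 lay among the values after knockdown. IFI6 measured 9.25, 9.12 and 9.54 in SCC25 +YBX1 and 10.79, 10.94 and 9.46 in SCC25 -YBX1, a log2 change of 1.1 ± 0.42 (unadjusted p = 0.0202, limma). The first 2 libraries after knockdown were above all with YBX1 and the third was not. ISG15 measured 6.62, 6.87 and 5.47 in SCC25 +YBX1 and 6.97, 8.89 and 6.00 in SCC25 -YBX1, a log2 change of 0.97 ± 0.55. OAS1 measured 5.38, 6.2 and 4.15 in SCC25 +YBX1 and 6.41, 7.95 and 4.75 in SCC25 -YBX1, a log2 change of 1.12 ± 0.80. In ISG15 and OAS1 the groups overlapped, and the third library after knockdown lay below the first 2 with YBX1. IFIT1 measured 3.53, 5.00 and 2.29 in SCC25 +YBX1 and 4.80, 7.42 and 2.50 in SCC25 -YBX1, a log2 change of 1.3 ± 1.00. RSAD2 measured 1.72, 2.92 and -0.94 in SCC25 +YBX1 and 2.03, 5.29 and 0.32 in SCC25 -YBX1, a log2 change of 1.31 ± 1.15. Without SCC25 -YBX1 replicate 2 these changes were 0.95 for IFIH1, 0.82 for IFI6, 0.17 for ISG15, 0.33 for OAS1, 0.047 for IFIT1 and -0.06 for RSAD2.

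The other 2 members with an unadjusted p under 0.05 were IFI27 and PLSCR1. IFI27 measured 9.83, 9.75 and 9.84 in SCC25 +YBX1 and 10.65, 11.00 and 10.02 in SCC25 -YBX1, so that all libraries after knockdown lay above all with YBX1, by 0.75 ± 0.34 (unadjusted p = 0.0459, limma). PLSCR1 measured 4.30, 5.34 and 4.27 and 5.43, 6.43 and 4.66 in the same order, with overlap and a change of 0.87 ± 0.38 (unadjusted p = 0.0390, limma). Libraries of both SCC25 groups did not overlap for 4 members, and for 7.31% of all genes. MX1, at 0 reads in SCC25 +YBX1, had 3 reads in SCC25 -YBX1, 1 in each library. None of the 27 pathway genes passed, and 19 had a higher mean after knockdown. As an example chosen after its values were seen, DDX58 measured 3.62, 4.54 and 3.00 with YBX1 and 4.17, 5.97 and 4.04 after knockdown. Replicate 2 after knockdown was the highest of the 6.

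**Figure D4:**
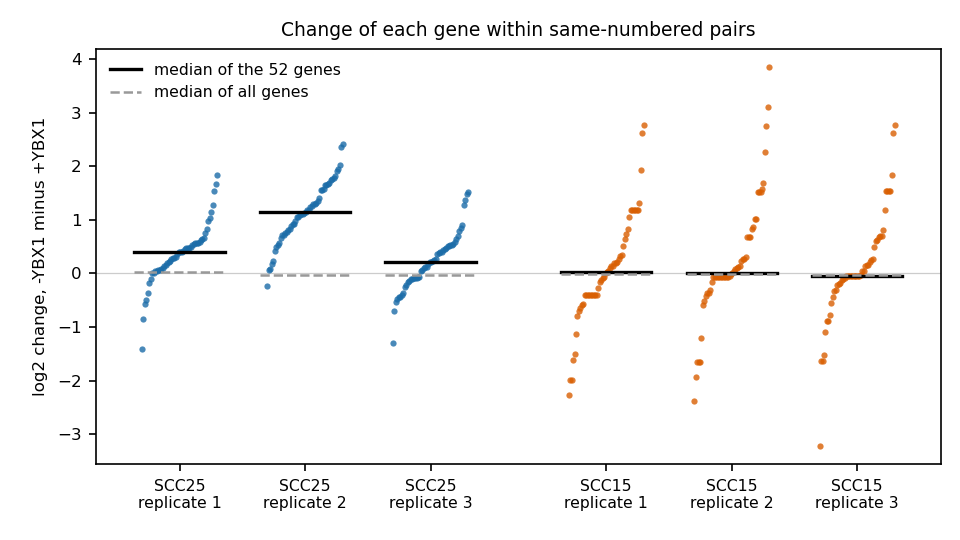
Log2 change from +YBX1 to -YBX1 (y axis) of each of the 52 listed genes within same-numbered pairs of libraries of SCC25 and SCC15; each point is 1 gene, the black bar their median and the dashed bar the median of all genes. The black bar stands at 0.39, 1.14 and 0.21 in SCC25 and at 0.02, 0.00 and -0.04 in SCC15.

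In SCC15 the members showed no shared direction after knockdown. The mean was higher in 29 of 52 members and lower in 23, where IFI44, at 0 reads in all 6 libraries, has no direction, with a median log2 change of 0.08 against -0.01 over all genes. At the adjusted threshold 0 members and 0% of all genes passed (limma), and 2 members stood at an unadjusted p under 0.05, beside 2.32% of all genes. These were IFI35 and PARP14, the latter with 1 read in SCC15 +YBX1 and 5 in SCC15 -YBX1. In each SCC15 library 21 to 24 members had at most 3 reads, and small changes in them were not detectable at this depth.

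IFI35, a partner of NMI that damps RIG-I signalling, measured -0.65, -1.98 and 1.35 in SCC15 +YBX1 and 1.98, 0.27 and 1.01 in SCC15 -YBX1, a log2 change of 1.52 ± 0.67 (unadjusted p = 0.0411, limma) from 20 reads to 48, and the groups overlapped. UBE2L6 measured 2.99, 0.52 and 1.92 in SCC15 +YBX1 and 2.91, 2.20 and 2.60 in SCC15 -YBX1, a change of 0.76 ± 0.54. CMTR1 measured 4.57, 4.97 and 5.17 in SCC15 +YBX1 and 5.22, 5.23 and 5.33 in SCC15 -YBX1, a change of 0.36 ± 0.28. For CMTR1 the libraries after knockdown were all above those with YBX1, by a margin smaller than the spread of the latter, and for UBE2L6 they lay within them. IFITM1 measured 4.30, 3.59 and 3.70 in SCC15 +YBX1 and 5.04, 3.71 and 3.87 in SCC15 -YBX1, a change of 0.34 ± 0.68. IFI6 measured 5.38, 4.26 and 3.99 in SCC15 +YBX1 and 4.97, 3.90 and 3.90 in SCC15 -YBX1, a change of -0.29 ± 0.42. DTX3L measured 1.97, 1.99 and 1.06 in SCC15 +YBX1 and 1.98, 2.04 and 1.68 in SCC15 -YBX1, a change of 0.23 ± 0.30. In all 3 the groups overlapped, and the sign turned when SCC15 -YBX1 replicate 1 (IFITM1), SCC15 +YBX1 replicate 1 (IFI6) or SCC15 +YBX1 replicate 3 (DTX3L) was left out. HERC5 and IFITM2, the members that SCC15 held above OKF6, changed by 0.14 ± 0.49 and -0.22 ± 0.35.

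**Figure D5:**
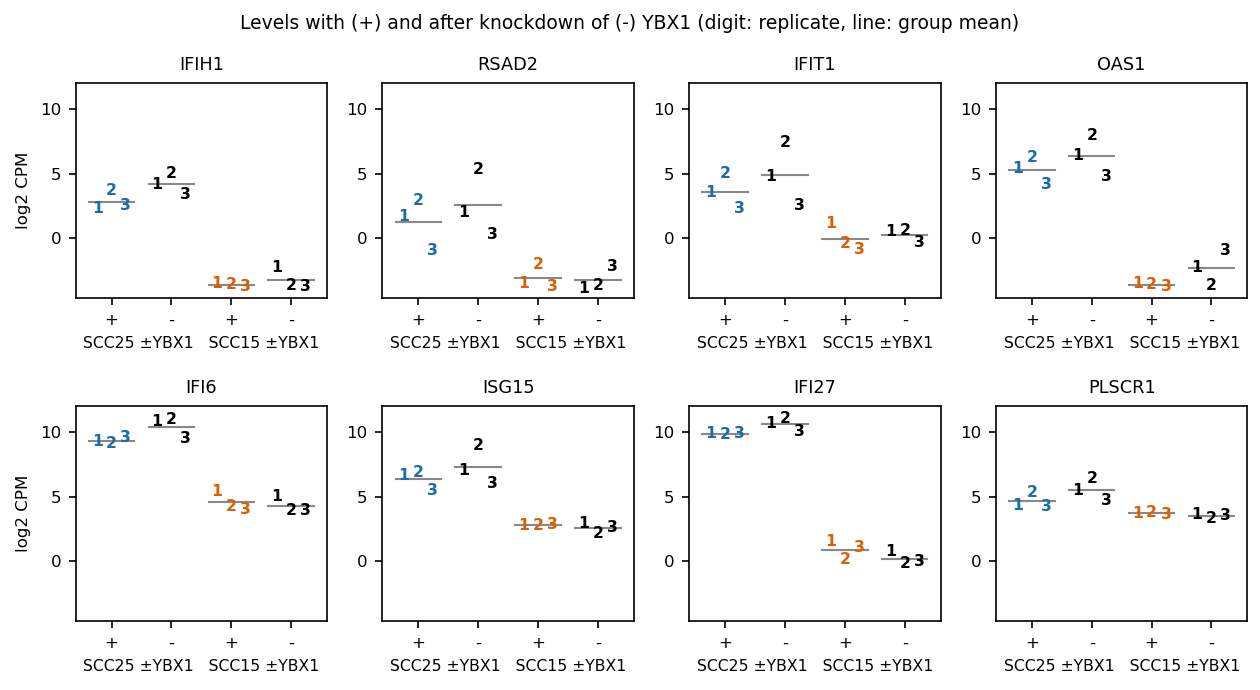
Log2 CPM (y axis) of 8 interferon-stimulated genes in SCC25 and SCC15 with YBX1 (+) and after knockdown (-); each digit is 1 library, named by its replicate, and the grey line is the group mean. In SCC25 the digit 2 stands highest after knockdown in all 8 genes, and the SCC15 values of IFIH1, RSAD2 and OAS1 stand for at most a few reads.

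Whether knockdown acted differently in the lines was tested as the difference of the 2 changes. At the adjusted threshold 0 members and 0% of all genes passed (limma). At an unadjusted p under 0.05 stood 3 members, IFI27, IFI6 and DDX60, beside 2.26% of all genes. DDX60 had only 2 reads over the SCC15 +YBX1 libraries and 0 over SCC15 -YBX1. In each SCC15 library 21 to 24 members had at most 3 reads, so the SCC15 part of their differences rests on few reads. The change was larger in SCC25 for 39 of 52 members, with a median difference of 0.39 against -0.01 over all genes. Without SCC25 -YBX1 replicate 2 it was larger for 24 members, with a median of -0.08. Without both SCC25 libraries numbered 2, a choice made after seeing the data, it was larger for 32 members, with a median of 0.15. The median was 0.79 without SCC25 -YBX1 replicate 3 and 0.21 without SCC25 +YBX1 replicate 3. IFI27 differed by 1.46 ± 0.49 (unadjusted p = 0.00972, limma), higher after knockdown in all 3 same-numbered pairs of SCC25 and lower in all 3 of SCC15. IFI6 differed by 1.38 ± 0.59 (unadjusted p = 0.0345, limma).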

How the data were processed

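Libraries were made by the authors with the QuantSeq 3′ FWD kit. Reads were trimmed (cutadapt), aligned to hg38 (HISAT2) and counted on genes (featureCounts), and limma served for normalisation and the filter on low genes. The strand setting of the counting is not given in the sources used here. The authors deposited log2 CPM values in 2 tables of the same 12995 genes, 9 libraries of the lines without knockdown and 12 libraries of SCC15 and SCC25, with 6 libraries in both. The lowest value of a library was read as 0 reads, and 100% of values then came out as whole reads within 0.05 read. Reads per library were 4075290 to 6118501, so a gene at 0 reads was below 3 reads, the floor used, and intervals and floors cover counting error only.

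The deposited log2 values of each table were fitted apart in limma (version 3.58.1, R 4.3.3) with an empirical Bayes step and a mean-variance trend, with all groups of the table, two-sided, and Benjamini-Hochberg adjustment over all genes at 0.05. The fit was tested on simulated data with known changes. Groups and replicate numbers came from the labels. Replicates differed by more than counting noise (chi-square per gene 3.99 to 80.8), so none was merged. In the knockdown, deviations of same-numbered libraries from their group means, over 6497 genes, correlated at 0.135, 0.470 and 0.425 in SCC25. In SCC15 they correlated at 0.498, 0.312 and 0.117. A differently numbered +YBX1 library correlated better with SCC25 -YBX1 replicate 1 (0.239) and with SCC15 -YBX1 replicate 3 (0.345). The numbers were taken to pair the libraries, which is uncertain for these replicates. Between lines the same-number correlations ran from -0.198 to 0.264 and the numbers were not taken to pair. Alternatives changed the scaling, offset, filter, variance model, threshold, weights, replicate block and libraries. Plots used Python 3.11.15 with matplotlib 3.10.9.

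The members, role lists and pathway genes were chosen with earlier results of these data known, and values of 1 pathway gene are not reported here. Library values are given for the 2 members of widest range in each role list, for the 6 with the largest change on knockdown in a line (mean log2 CPM of at least 1 in an arm), and for the called members with the largest change between lines, up to 3 in each direction. Members named beyond this rule (ADAR, IFIT5, the neighbours in the IFITM, OAS and HERC clusters and others given by library) were chosen after their values were seen. Positions are from GENCODE on hg38 and promoters from RefSeq on GRCh38.p14.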

Additional observations from a re-analysis of the deposited data

Results flagged for a closer look

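For IFI27 and PLSCR1 every same-numbered pair of SCC25 libraries was higher after knockdown and every pair of SCC15 libraries lower, so that the changes pointed in opposite directions. Pairs with 0 reads in both libraries were given no direction. Opposite directions of this kind, either way round, were found in 2 of 52 members (3.85%) and in 326 of 12995 genes (2.51%). The direct test of the difference passed for neither after adjustment over all genes (limma, adjusted p = 1.00 for each).

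IFI27, the mitochondrial protein, had pair changes of 0.83, 1.26 and 0.18 in SCC25 and -0.71, -0.31 and -1.1 in SCC15. Its difference was 1.46 (SE 0.49, unadjusted p = 0.00972, limma). PLSCR1, the scramblase, had pair changes of 1.14, 1.09 and 0.39 in SCC25 and -0.09, -0.43 and -0.12 in SCC15, a difference of 1.09 (SE 0.54, unadjusted p = 0.0644, limma). IFI27 and PLSCR1 had 34 and 231 reads over the SCC15 +YBX1 libraries and 23 and 226 over SCC15 -YBX1.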

How the results depend on the processing

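Of 13 members called in SCC25 against OKF6, 11 were higher and 2 lower. Of all genes 2450 were higher and 1473 lower. A threshold of 0.01 left 5 members higher and 1 lower, beside 1466 and 740 of all genes. Quantile normalisation gave 4 lower, beside 1837 genes. Genes above the first quartile of mean expression gave 1 lower, beside 1266 of 9746 genes. Voom weights on recovered reads gave 19 higher, beside 2561 genes. With 1 library left out the higher calls ran from 5 to 15 and the lower from 1 to 4. Those of all genes ran from 1701 to 3278 and from 930 to 2053. Counts for SCC15 against either line stayed within 1.5 times under every alternative, and the filter at the first quartile removed members with few reads from the test. The knockdown gave 0 called members under every alternative in both lines and in their difference.

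The replicate block gave 42, 17 and 45 called members for SCC15 against OKF6, SCC25 against OKF6 and SCC15 against SCC25, and 15 higher in SCC25 against OKF6. Of all genes it called 6401, 3708 and 5451, in place of 6534, 3923 and 5672, with 2361 higher in SCC25 against OKF6. For the knockdown this block ties the same number of both lines together, although numbers were taken to pair libraries only within a line. It changed no call (0 members). The knockdown changes and p-values given above come from the fit without a block. With a block inside each line, added after seeing the data, 11 members of SCC25 stood at an unadjusted p under 0.05 (limma) in place of 4, and 5.54% of all genes in place of 3.09%.

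Among the 6 members of each line named for the largest change on knockdown, leaving out 1 library turned the sign of 4 changes. The ranges were -0.058 to 2.42 for RSAD2 in SCC25, and in SCC15 -0.076 to 0.59 for IFITM1, -0.65 to 0.13 for IFI6 and -0.078 to 0.39 for DTX3L. Over all listed members more signs turned in SCC25. There, members with a higher mean after knockdown fell from 51 to 29 without SCC25 -YBX1 replicate 2, and to 44 without SCC25 +YBX1 replicate 3. In every other fit with 1 SCC25 library left out they numbered at least 49. The median of the members after knockdown in SCC15 turned from 0.08 to -0.03 with an offset of 2 reads and to -0.01 among the genes above the first quartile, and was 0.32 without SCC15 +YBX1 replicate 1. CMPK2, GBP2 and SAMD9 lost their call under several settings. The causes were not tested. Depth limits SCC15, where 21 to 24 members had at most 3 reads in a library.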

Other observations

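Members with and without a match to the searched ISRE core were lower in SCC15 in most cases. The search covered a single spacing and the first start of a gene. Variants such as GAAACGAAA in OAS1, RSAD2 and XAF1 were not counted, and at any start 30 members had a match. Of the 28 members with a match, 23 were lower in SCC15 than in OKF6, with a median log2 change of -4.81. Of the 17 without one 11 were lower, with a median of -3.25. Against SCC25, 25 of the 28 and 14 of the 17 were lower in SCC15, with medians of -4.13 and -3.97. After knockdown in SCC25 the medians were 0.57 and 0.47. These are counts with no test of the difference between both sets, and the sets differ in level.

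OKF6 varied among its libraries as well. Replicate 1 was the highest of the 3 in 32 of 52 members, beside 39.3% of all genes. Replicate 3 was the lowest in 31, beside 33.3% of all genes. The members took 0.331%, 0.237% and 0.171% of reads. IFI6 spanned 8.98, 6.35 and 5.64 log2 CPM and IFI27 9.90, 7.83 and 7.81 in OKF6, a wider range than in SCC25 +YBX1. MX1, at 5.45, 5.07 and 2.16 log2 CPM, was lowest in replicate 3, and OAS1, at 6.33, 3.75 and 3.42 log2 CPM, was high in replicate 1 alone.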
